A study of Rattus norvegicus with 40 samples.

Results

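Gene expression in gastrocnemius, a muscle of the calf, was compared with that in triceps, a muscle of the upper fore limb, in 10 male Wistar rats aged 22 months. Wistar is an outbred laboratory strain, so the animals were not genetically identical. The comparison took the 20 libraries whose labels give this age, of 40 libraries in the whole series, and paired the gastrocnemius and triceps of each animal by the animal number in the labels, 31 to 40. No treatment or genetic change is given for any animal, and the remaining 20 libraries came from the same muscles of 10 other male Wistar rats aged 20 months. Each library was made from polyadenylated RNA of whole muscle, and the values are read counts per gene. The question was which genes distinguish a hind limb from a fore limb muscle in old animals at an age when sarcopenia, the loss of muscle mass and strength with age, sets in.

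Both muscles are built from contractile fibres whose myosin, metabolic enzymes and innervation set how fast they contract and how long they resist fatigue, and muscles differ in their mixture of fibre types. Muscles of the fore limb and hind limb also keep some of the positional gene expression of the limb they formed in. A piece of whole muscle further holds vessels, nerve, connective tissue, fat and immune cells, each with its own transcripts. Ageing rodent muscles lose fibres and motor nerve contacts, and they do so to different degrees. The deposited table gives Ensembl rat gene identifiers without names, and 0 of its 32545 identifiers were matched to the 47357 genes of the RefSeq annotation used here. Fibre type genes, limb position genes and markers of cell types were therefore not analysed here, and the tissue labels were not checked against markers. Genes are described by identifier, level and pattern across animals, and no sequence is shown because no identifier could be matched to a sequence.

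Total counts ranged from 15175847 to 47807240 per library in gastrocnemius and from 12108635 to 38864093 in triceps. Depth was higher in gastrocnemius in 8 of 10 animals (exact paired permutation test, two-sided, p = 0.01367, the same value after Benjamini-Hochberg adjustment over 4 tests of depth and composition). With every library thinned to 12108635 counts, 16400 to 17308 genes were detected in gastrocnemius and 15909 to 16438 in triceps. Gastrocnemius libraries held more detected genes in 10 of 10 animals (exact paired permutation test, p = 0.001953, the smallest that 10 pairs can give, adjusted 0.003906). A single list of the 50 genes most abundant on average over the 20 libraries of both muscles was also examined. These genes took 32.5% to 44.8% of the counts in gastrocnemius, with a median of 39.9%, against 42.4% to 46.5% and a median of 43.2% in triceps. The share was lower in gastrocnemius in 9 of 10 animals (exact paired permutation test, p = 0.005859, adjusted 0.007812). The list was common to both muscles, so its share also follows the differences of these genes, given below. The exception was animal 35, with 44.8% in gastrocnemius and 42.9% in triceps. How far depth or composition bears on the differences between single genes was examined by thinning and by other scalings, which are given with the results they touch.

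A gene was tested when it reached 1 CPM (the counts of a gene per 1000000 counts of its library) in 10 or more of the 20 libraries, and it was called at an adjusted p under 0.01 in a quasi-likelihood F-test by edgeR with the animal in the model. Of 12565 genes tested, 2647 were called, or 21.1%. In gastrocnemius 1279 genes were higher (10.2%) and 1368 were lower (10.9%). The split between directions depended on how libraries were scaled. With library totals in place of the trimmed mean of M values (TMM), 3421 genes were called, 2749 higher and 672 lower, so that the share of higher genes was 80.4% instead of 48.3%. That scaling moved the median log2 difference of all genes from 0.01 to 0.19. Differences below are therefore read against the median gene, as TMM sets it. In bulk muscle, fewer cells of a type and less RNA per cell cannot be told apart.

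Most differences were small. Called genes mostly had 1 direction across animals, but they were called from these same animals, so that agreement was selected for. The median absolute log2 difference was 0.58 among called genes and 0.20 among all genes tested. The median was 0.63 for genes called higher and 0.54 for genes called lower. The smallest difference called was 0.19 on the log2 scale, and the median standard error over all genes was 0.10. Of the called genes, 1586, or 59.9%, differed in the fitted direction in 10 of 10 animals, 894 in 9, 164 in 8 and 3 in 7, where 1731 of all tested genes (13.8%) had 1 direction in 10 of 10 animals. For 486 genes (3.87%) the gastrocnemius and triceps libraries did not overlap at all, 285 with gastrocnemius above and 201 with gastrocnemius below, and 485 of them were called.

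Large differences lay mostly on the side of gastrocnemius. Among called genes, 834 were higher and 772 lower by more than 0.5 on the log2 scale. Beyond 1 there were 352 higher and 174 lower, beyond 2 there were 107 higher and 11 lower, and beyond 3 there were 56 higher and 1 lower. With library totals the numbers beyond 1 were 502 and 102, beyond 2 they were 126 and 7, and beyond 3 they were 66 and 1. At the far end, 7 genes had counts in all 10 gastrocnemius libraries and none in any triceps library, while 0 genes showed the reverse. Thinned to equal depth, 4 genes and 0 genes did so. Those 7 genes were weakly expressed, at 0.16 to 1.095 CPM over the pooled gastrocnemius libraries. A count of 0 over the 199829001 counts of triceps allows a level of up to 0.015 CPM, taking 3 counts as the limit and counting error only.

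**Figure D1:**
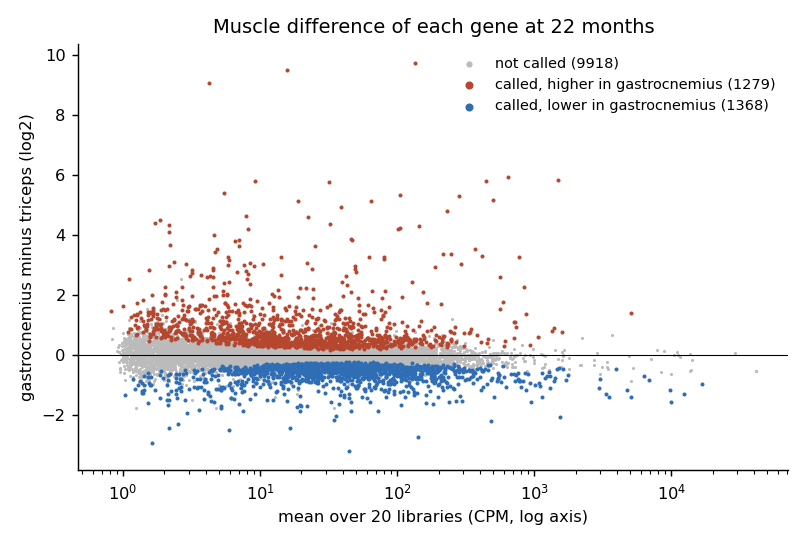
Mean level of each of the 12565 genes tested, in CPM on a log axis, against its fitted log2 difference (gastrocnemius minus triceps) at 22 months. Grey points were not called, red points are the 1279 genes called higher and blue points the 1368 called lower in gastrocnemius. The 56 genes beyond 3 on the log2 scale lie above 0 and only 1 gene lies as far below, while the 88 genes at 1000 CPM or more have a median of -0.41.

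Direction followed the level of a gene. Among the 88 genes with a mean of 1000 CPM or more, 31 (35.2%) were called lower in gastrocnemius and 6 (6.82%) higher, and their median log2 difference was -0.41. From 100 to 1000 CPM, 22.1% of 1229 genes were called lower and 9.85% higher. From 20 to 100 CPM the shares were 14.6% lower and 10.6% higher of 4490 genes. Below that the balance turned, with 7.92% lower and 10.97% higher of 4065 genes from 5 to 20 CPM, and 3.34% lower and 8.62% higher of 2693 genes under 5 CPM. The order of the class medians was the same under TMM, size factors by relative log expression (RLE) and library totals, from 0.09 above the median of all genes in the lowest class to 0.41 below it in the highest under each scaling. With library totals, 281 genes from 100 to 1000 CPM were called higher and 182 lower, and from 20 to 100 CPM 1108 were called higher and 294 lower, so the direction of both classes turned, while at 1000 CPM or more 9 were higher and 25 lower. Of the 50 genes most abundant over the 20 libraries, 15 were called lower in gastrocnemius and 1 higher. Their lower share of the gastrocnemius counts partly restates these differences.

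**Figure D2:**
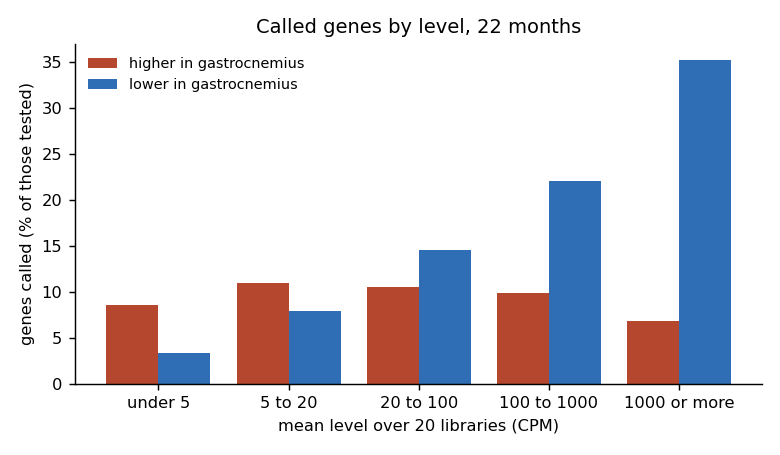
Share of tested genes called higher (red) or lower (blue) in gastrocnemius at 22 months, by mean level over the 20 libraries in CPM. Bars start at 0. The share called lower rises from 3.34% in the lowest class to 35.2% in the highest, and the share called higher stays between 6.82% and 10.97%.

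In counts, the genes called lower held 23.6% to 27.9% of a triceps library and 11.6% to 20.9% of a gastrocnemius library. The genes called higher held 6.28% to 13.9% of a gastrocnemius library and 3.83% to 5.24% of a triceps library. These shares do not overlap between the muscles, but the genes were chosen by this same comparison, so they only describe it. Within gastrocnemius the lowest share in genes called higher, 6.28%, and the highest in genes called lower, 20.9%, were both those of animal 35, and the opposite extremes, 13.9% and 11.6%, were both those of animal 34.

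The gene with the largest excess in gastrocnemius, among called genes whose mean reached 5 CPM and that had 1 direction in 10 of 10 animals, was ENSRNOG00000026087. Its level was 32.7 CPM in the lowest, 308 CPM in the median and 469 CPM in the highest gastrocnemius library. In triceps it was 0 CPM in the lowest, 0.124 CPM in the median and 1.39 CPM in the highest library. The groups did not come near each other, and the triceps values rest on 59 counts in all, with no count in animals 33 and 37. The fitted log2 difference of 9.74 ± 0.44 (SE) had an adjusted p of 9.076e-09 in the edgeR test, and its size is imprecise because so few triceps reads carry it. Gastrocnemius was far from uniform. Animals 38 and 37 were lowest, at 32.7 and 46.9 CPM, animal 35 followed at 105 CPM, and the other 7 animals were between 209.8 and 469 CPM.

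ENSRNOG00000016149 came next and was different in kind, because its level varied little within gastrocnemius. It was at 19.1 CPM in the lowest, 31.6 CPM in the median and 41.5 CPM in the highest gastrocnemius library, with a mean of 31.5 ± 7.15 CPM (SD, n = 10). In triceps only 7 counts were found over 10 libraries, 5 of which had none, and the highest library was at 0.182 CPM. The fitted log2 difference of 9.52 ± 0.26 (SE) had an adjusted p of 3.095e-11 in the edgeR test. Its size is imprecise because only 7 triceps counts carry it, and the SE by DESeq2 was 0.75. All 10 animals had more of it in gastrocnemius, but this was fixed in advance. With every triceps library under 1 CPM, the gene could pass the filter only through all 10 gastrocnemius libraries. The highest gastrocnemius level was 2.17 times the lowest for this gene and 14.4 times the lowest for ENSRNOG00000026087.

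Of the genes called lower in gastrocnemius, ENSRNOG00000051548 differed most. It was at 5.09 CPM in the lowest, 7.71 CPM in the median and 20.7 CPM in the highest gastrocnemius library, and at 67.8 CPM in the lowest, 76.4 CPM in the median and 105 CPM in the highest triceps library. The muscles did not overlap. The log2 difference of -3.18 ± 0.20 (SE) had an adjusted p of 1.111e-07 in the edgeR test, and this was the only called gene lower by more than 3. The smallest differences within an animal were -1.99 in animal 38 and -2.18 in animal 37.

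Within the same limits of level and direction, ENSRNOG00000016043 had the next largest deficit. It was at 9.61 CPM in the lowest, 27.6 CPM in the median and 142 CPM in the highest gastrocnemius library, and at 155.6 CPM in the lowest, 226 CPM in the median and 340 CPM in the highest triceps library. The muscles again did not overlap, but the highest gastrocnemius library came close to the lowest triceps library. Its log2 difference of -2.72 ± 0.37 (SE) had an adjusted p of 0.0001004 in the edgeR test. Within animals it ran from -4.44 in animal 34 to -0.79 in animal 38. The highest gastrocnemius level was 14.8 times the lowest.

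**Figure D3:**
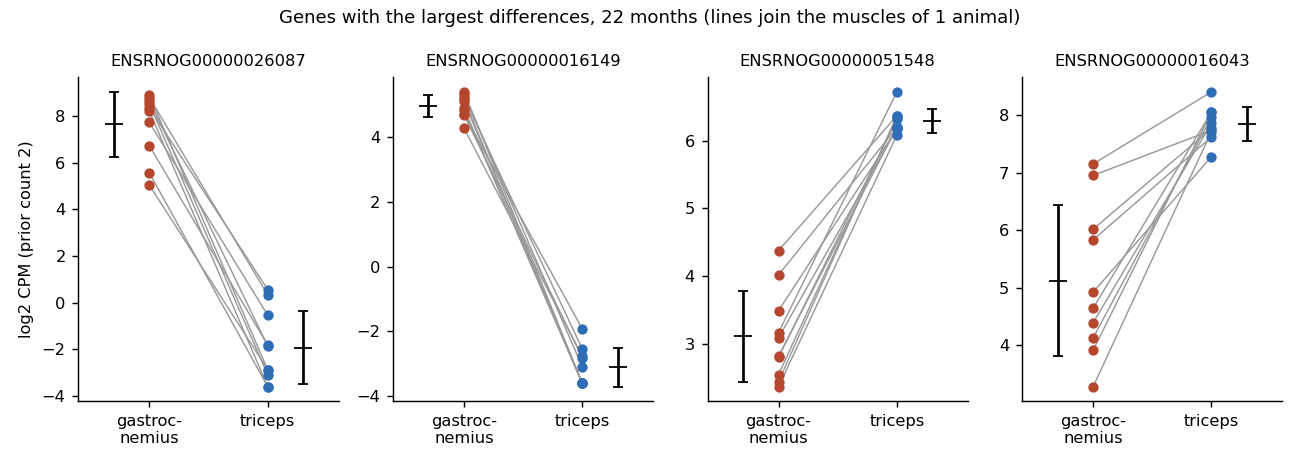
Levels at 22 months of the 2 genes with the largest excess and the 2 with the largest deficit in gastrocnemius, among called genes whose mean reached 5 CPM with 1 direction in 10 of 10 animals, in log2 CPM with a prior count of 2. Each line joins both muscles of 1 animal, and black marks show the mean and SD of 10 libraries. All lines of a panel slope the same way, gastrocnemius points are spread widely for every gene but ENSRNOG00000016149, and the lowest triceps points of the first and second panels are libraries without a count.

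A group of 3 of these genes moved together across the gastrocnemius of the 10 animals, in log2 CPM. ENSRNOG00000026087 was lowest in animals 37 and 38, at 46.9 and 32.7 CPM, where ENSRNOG00000051548 was highest, at 16.1 and 20.7 CPM, and ENSRNOG00000016043 was highest too, at 142 and 124 CPM. Over the 6 relations among the 4 named genes, ENSRNOG00000026087 and ENSRNOG00000051548 had a Pearson r of -0.91 (permutation p = 0.00099, adjusted 0.00594) and a Spearman rho of -0.76 (permutation p = 0.01521, adjusted 0.09126). ENSRNOG00000026087 and ENSRNOG00000016043 had an r of -0.83 (permutation p = 0.00263, adjusted 0.00622) and a rho of -0.61 (permutation p = 0.06618, adjusted 0.1026). ENSRNOG00000051548 and ENSRNOG00000016043 had an r of 0.83 (permutation p = 0.00311, adjusted 0.00622) and a rho of 0.66 (permutation p = 0.04401, adjusted 0.1026). Without animals 37 and 38 these r were -0.61, -0.52 and 0.53 (exact permutation tests, n = 8, p = 0.1307, 0.2042 and 0.1827). The signs were kept, but the relations were not shown without those animals. With 8 animals and a narrower range, how far they rest on animals 37 and 38 cannot be told. In the gastrocnemius of the 20-month animals the same r were -0.61 (permutation p = 0.04787, adjusted 0.09574), -0.82 (permutation p = 0.00602, adjusted 0.01806) and 0.82 (permutation p = 0.0021, adjusted 0.0126). There the rho were -0.53 (permutation p = 0.123, adjusted 0.2459), -0.66 (permutation p = 0.04259, adjusted 0.1278) and 0.87 (permutation p = 0.00238, adjusted 0.01428). Without animals 21 and 26, the farthest from the median of ENSRNOG00000026087 at that age, the r of its relations were -0.37 and -0.36 (exact permutation tests, n = 8, p = 0.3796 and 0.3654). Without animals 23 and 27, the farthest from the median of ENSRNOG00000051548, its r with ENSRNOG00000016043 was 0.83 (exact permutation test, n = 8, p = 0.005754). Animal 21, at 39.4 and 198 CPM among the highest in both genes, stayed in that value, so the relations were not compared under the same animals. ENSRNOG00000016149 had an r of -0.19 with ENSRNOG00000026087 at 22 months (permutation p = 0.5931, adjusted 0.5931) and a rho of -0.21 (permutation p = 0.5602, adjusted 0.5602). Its r with ENSRNOG00000051548 was 0.28 (permutation p = 0.4353, adjusted 0.5224), with a rho of 0.36 (permutation p = 0.3113, adjusted 0.3735). Its r with ENSRNOG00000016043 was 0.56 (permutation p = 0.08988, adjusted 0.1348), with a rho of 0.61 (permutation p = 0.06842, adjusted 0.1026). That it stands apart from the 3 genes was therefore not shown.

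The 107 genes called higher in gastrocnemius by more than 2 on the log2 scale were then examined as a class. They had mean levels of 1.10 to 1478 CPM, with a median of 10.5 CPM. Of these genes, 96 were higher in 10 of 10 animals, and in 59 the muscles did not overlap. Over all tested genes, 13.8% had 1 direction in 10 of 10 animals and 3.87% did not overlap. The class was chosen by this same comparison, so these counts and the sums below only describe it. A triceps mean under 1 CPM was found for 32 of the 107 genes. Summed over the 107 genes, gastrocnemius was at 6209 to 29917 CPM and triceps at 688 to 7095 CPM. The sum was higher in gastrocnemius in 10 of 10 animals, and the ranges of the muscles overlapped. The 107 genes varied more between animals than all tested genes, which were not matched to them by level. The median SD of their log2 level was 0.80 in gastrocnemius and 0.83 in triceps, against 0.25 and 0.24 for all tested genes. Only 14 of the 107 had an SD under 0.5 in gastrocnemius. Counting error adds to the SD of genes near 0 in triceps, and how much it adds was not tested. The 10 genes of at least 5 CPM whose muscle difference varied most between animals had an SD of that difference of 2.37 to 3.62, against a median of 0.29, and 9 of them belonged to this class. With animal 40 left out 108 genes passed, and with any animal left out 102 to 118 did. Without the filter on low counts 238 genes passed, and 20 genes were called lower by more than 2.

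These genes fell into sets by their levels over the 10 gastrocnemius libraries, joined where the mean correlation within a set was at least 0.5. The 4 largest sets held 42, 23, 16 and 12 genes, and the remaining 14 genes lay in sets of 6, 5, 2 and 1. The median correlation between genes of a set was 0.84, 0.75, 0.70 and 0.74 in these libraries, which is what the sets were built on. It was 0.87, 0.67, 0.63 and 0.83 in the gastrocnemius of the 20-month animals, which did not enter the grouping, over the 39, 19, 14 and 10 genes tested there. In triceps of the 22-month animals it was 0.66 in the largest set and 0.19, 0.33 and 0.10 in the others. The median over all pairs of the 8048 genes whose mean reached 10 CPM was 0.02 in gastrocnemius and 0.01 in triceps, and over 7849 genes of the 20-month gastrocnemius it was 0.01. Those genes were not matched to the sets by level or by spread between animals. Depth and composition of a library touch all genes in it, so these correlations are given as a description.

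The set of 42 genes carried most of the summed level. It ran from 3393 CPM to 25763 CPM in gastrocnemius, with a median of 12491 CPM, and from 425 CPM to 6621 CPM in triceps, with a median of 841 CPM. In gastrocnemius it was highest in animals 31, 34 and 39, at 25763, 24310 and 21648 CPM, and lowest in animals 35 and 36, at 3715 and 3393 CPM. In triceps it was highest in animals 40 and 37, at 6621 and 3295 CPM, and the other 8 animals were between 425 and 1541 CPM. The triceps of animal 40 therefore stood above the gastrocnemius of animals 35 and 36, and within animal 40 the muscles were nearly level, with gastrocnemius at 8094 CPM and triceps at 6621 CPM. The median log2 difference of the set was 3.14, with 2.03 to 5.94 over its genes. Whether markers of another cell type move with this set was not tested, because no identifier could be named.

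The set of 23 genes behaved otherwise. It was at 848 to 3341 CPM in gastrocnemius and at 125 to 311 CPM in triceps, so the muscles did not overlap. It was highest in the gastrocnemius of animals 32 and 34, at 3341 and 2901 CPM, and lowest in animals 38 and 37, at 848 and 1069.7 CPM. The set of 16 genes, which holds ENSRNOG00000026087, was at 456 to 1464 CPM in gastrocnemius and at 43.3 to 130.5 CPM in triceps. Its 3 lowest gastrocnemius libraries were those of animals 38, 37 and 35, at 456, 504 and 526 CPM. The set of 12 genes was at 306 to 1314 CPM in gastrocnemius and at 52.3 to 116 CPM in triceps, with animal 38 lowest and animal 33 highest. ENSRNOG00000016149 lay in the set of 5 genes, at 47.7 to 109 CPM against 2.41 to 8.24 CPM. None of these 4 sets overlapped between the muscles, but their genes were chosen by this same comparison.

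**Figure D4:**
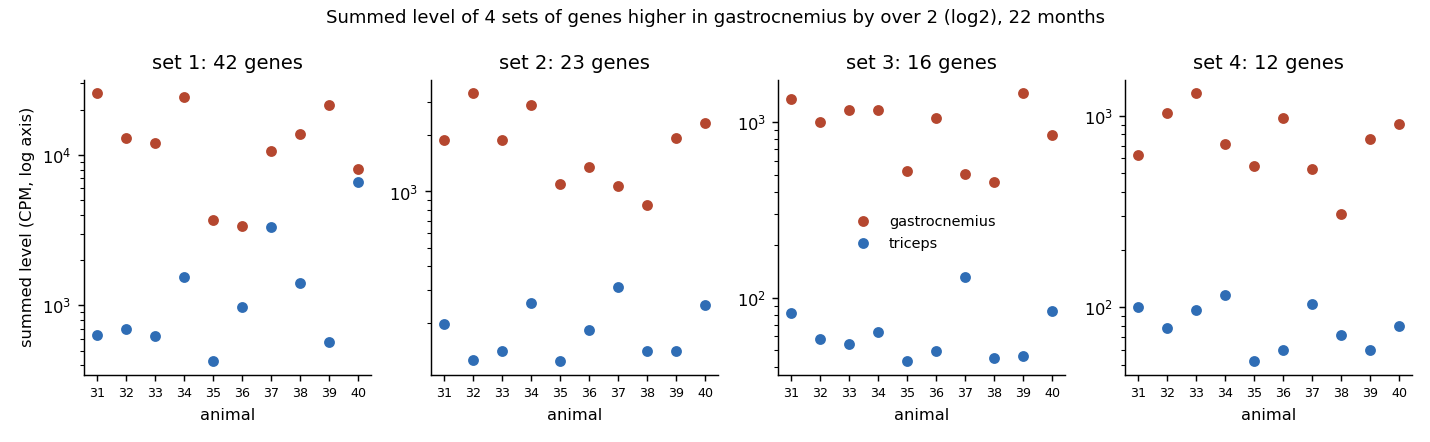
Summed level in CPM on a log axis of the 4 largest sets among the 107 genes higher in gastrocnemius by more than 2 on the log2 scale, for each of the 10 animals at 22 months. Red points are gastrocnemius and blue points triceps. The set of 42 genes overlaps between the muscles through the triceps of animal 40, at 6621 CPM, and the gastrocnemius of animals 35 and 36, at 3715 and 3393 CPM, while the sets of 23, 16 and 12 genes are apart.

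Of the 11 genes called lower by more than 2, 10 were lower in 10 of 10 animals and the muscles did not overlap in 8. The shares over all tested genes were 13.8% for 1 direction and 3.87% without overlap. These 11 genes too were chosen by this comparison, so their counts and sums only describe it. The means of the 11 genes were 1.63 to 1543 CPM. By the same grouping 7 of them, among them ENSRNOG00000051548 and ENSRNOG00000016043, formed 1 set, and the other 4 stood alone. The median correlation within the set of 7 was 0.71 in the gastrocnemius libraries it was built on and 0.74 in the gastrocnemius of the 20-month animals. In triceps it was 0.01 at 22 months and 0.51 at 20 months. The summed level was 383 to 1569 CPM in gastrocnemius and 2798 to 5037 CPM in triceps, without overlap.

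How far apart the muscles of an animal lay was measured over the same 8048 genes. Each library was placed along the mean muscle difference of the other 9 animals, in units of that difference, so that an animal like the others has its muscles 1 apart. Gastrocnemius libraries lay at 0.13 to 0.88 and triceps libraries at -0.69 to -0.18, and the muscles did not overlap. The muscles were farthest apart in animal 32, at 1.40, followed by distances of 1.27 in animal 39, 1.25 in animal 34, 1.15 in animal 31 and 1.14 in animal 33. It was smaller in the remaining animals, at 0.80 in animal 35, 0.73 in animal 40, 0.68 in animal 38, 0.63 in animal 36 and 0.52 in animal 37. The short distances differed in their source. Animals 35, 36, 37 and 38 had the lowest gastrocnemius positions, at 0.13 to 0.24, whereas animals 40 and 37 had the highest triceps positions, at -0.18 and -0.28. Gastrocnemius position went with library composition. The 50 most abundant genes took 40.9% to 44.8% of the gastrocnemius counts in animals 35, 36, 37 and 38. Their share was 32.5%, 32.7% and 33.2% in animals 34, 32 and 39, whose positions were highest, and 35.2% to 40.1% in animals 31, 33 and 40. How far composition bears on these positions was not tested. Between any pair of animals, the profile of muscle differences correlated across genes with an r of 0.38 to 0.87 and a median of 0.63 over 45 pairs.

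**Figure D5:**
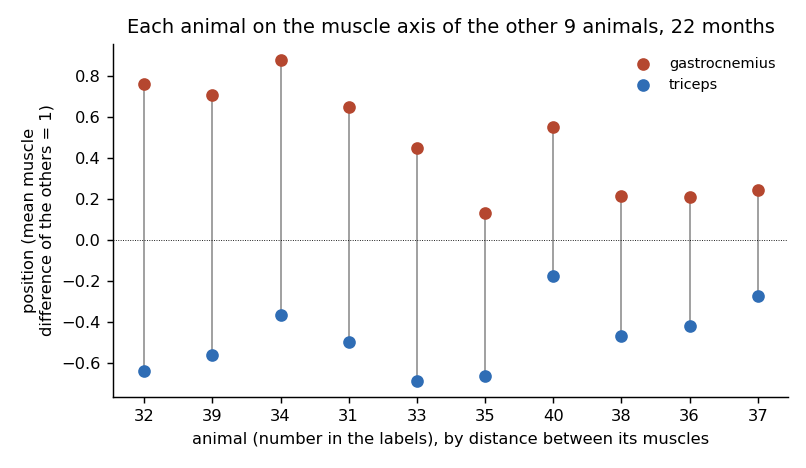
Position of both muscles of each animal along the mean gastrocnemius minus triceps difference of the other 9 animals at 22 months, with animals ordered by the distance between their muscles. A distance of 1 equals the mean difference of the others. Gastrocnemius (red) lies above 0 and triceps (blue) below 0 in 10 of 10 animals, and the distance falls from 1.40 in animal 32 to 0.52 in animal 37.

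The spread of gastrocnemius along this axis was larger than that of triceps, at an SD of 0.27 against 0.17 (n = 10 each). The mean absolute deviation from the group mean was 0.23 and 0.13, a difference that the paired test did not show (exact paired permutation test, two-sided, p = 0.1152, adjusted 0.1729 over 3 tests). Along the mean muscle difference of the 20-month animals, which shares no library with these, gastrocnemius libraries of 22 months lay at 0.25 to 1.06 and triceps libraries at -0.90 to -0.30. The distance was then 0.81 to 1.75, and the muscles were in the same order in 10 of 10 animals.

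The 20-month animals also gave a separate measure of each gene. There 506 of 12426 genes (4.07%) were called with the animal in the model, 316 higher and 190 lower in gastrocnemius. This count was unstable, at 1227 by DESeq2 and at 213, 224, 244, 255, 270 or 284 without replicate 5, 3, 9, 4, 8 or 7 of that age. Of the 2647 genes called at 22 months, 2606 were tested at 20 months, where 2599 had the same sign and 479 were called. That is 18.1% of the genes called at 22 months and 94.7% of those called at 20 months, and both shares rest on the unstable count. Over these 2606 genes the median difference in the direction of 22 months was 0.57 at 22 months and 0.35 at 20 months. The genes were chosen at 22 months, so the smaller value at 20 months is no test. Of the 107 genes higher by more than 2, 93 were tested at 20 months, all 93 had the same sign and 60 were called, with a median log2 difference of 2.51. These are group values, and single animals departed from them. In animal 30 of 20 months the summed level of the set of 42 genes, over the 39 genes tested there, was 2036 CPM in gastrocnemius and 16466 CPM in triceps, and in animal 27 its triceps reached 16726 CPM, against 29279 CPM in gastrocnemius. Along the mean muscle difference of the other 20-month animals, the muscles of animal 30 were 0.16 apart. Of the 11 lower genes, all 11 were tested and had the same sign, and 8 were called, with a median of -1.66.

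The named genes kept their direction in the other animals, with smaller differences. At 20 months the log2 difference of ENSRNOG00000026087 was 7.28 ± 0.55 (SE, adjusted p = 8.778e-06 by edgeR) and that of ENSRNOG00000016149 was 8.13 ± 0.39 (SE, adjusted p = 2.093e-07 by edgeR). It was -2.16 ± 0.23 for ENSRNOG00000051548 (SE, adjusted p = 0.0001077 by edgeR) and -1.66 ± 0.23 for ENSRNOG00000016043 (SE, adjusted p = 0.000876 by edgeR). The gastrocnemius level of ENSRNOG00000016149 was alike in both sets of animals, at 33.7 ± 4.33 CPM at 20 months (SD, n = 10), and its triceps level was 0.47 CPM or less.

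Whether a muscle difference itself changed between the ages was tested on all 40 libraries. Of 12980 genes, 0 were called by edgeR (0.0%), with a lowest adjusted p of 0.932 and with 585 genes at an unadjusted p under 0.05. Neither DESeq2 nor limma-voom called a gene (0 each), and their unadjusted p was under 0.05 for 679 and 602 genes. For the named genes the change of the log2 difference, 22 minus 20 months, was 2.45 ± 0.87 for ENSRNOG00000026087, 1.38 ± 0.90 for ENSRNOG00000016149, -1.02 ± 0.32 for ENSRNOG00000051548 and -1.06 ± 0.46 for ENSRNOG00000016043 (SE), each with an adjusted p of 0.9317 by edgeR. A larger difference at 22 months was thus not shown for any gene. Counts were simulated with the depth and spread of these libraries, with 100 genes changed by each size. There this test recovered 73% of changes of 1 and 17% of changes of 0.5 on the log2 scale. These shares depend on how many genes change.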

How the data were processed

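The values used are whole-number read counts per gene, deposited by the authors as raw values in a table of all 40 libraries. The submitters' processing notes name CASAVA 1.8, STAR 2.3.0e, HTSeq and build Rnor_6.0. RNA came from a miRNeasy kit and libraries from TruSeq reagents. The study's methods describe kallisto for its own rat values and unstranded reads, so values can differ from those of the study and overlapping or antisense genes cannot be told apart. Of 32545 rows, 10381 had no count at 22 months. The table has 0 columns of per-sample values without a matching library.

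Genes with at least 1 CPM in 10 or more libraries (as many as the animals of a group, when an animal was left out) were tested in R 4.3.3 with edgeR 4.0.16 (quasi-likelihood F-test, TMM, two-sided, animal as a term, adjusted p under 0.01), with DESeq2 1.42.0 and limma 3.58.1 as alternatives. The SE was taken from the F statistic. Levels in CPM are scaled by TMM, and log2 CPM used a prior count of 2. Correlations across libraries used 100000 resamples in Python 3.11.15 with SciPy 1.17.1. In simulated counts for the 22-month comparison, over 12565 genes, 94% of changes of 1 and 39% of changes of 0.5 on the log2 scale were recovered. Only 100 genes were changed by each size there, far fewer than were called in the data. The adjusted p threshold was therefore stricter in the simulation, and these shares do not give the recovery in the data.

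The pairing rests on the animal identifier of the labels, which gastrocnemius and triceps of an animal share. Their deviations from the mean of each muscle correlated with a median r of 0.14 (-0.17 to 0.48, over 0.1 in 7 of 10 animals), against a median of -0.03 between different animals. No pair of libraries of a group agreed within sampling noise, with a smallest chi-square of 19.7 per gene. The labels give no batch or date, and the limit given for a count of 0 covers counting error only.

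Identifiers were named by a rule, the 2 largest positive and the 2 largest negative differences among called genes of at least 5 CPM with 1 direction in 10 of 10 animals. The comparison, the lists and the rule were chosen with earlier results of these data known. The lists of gene symbols could not be applied, and the sets of correlated genes were formed after the differences were seen.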

Additional observations from a re-analysis of the deposited data

Results flagged for a closer look

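Each of 29 sets of 10 values, by library or by animal, was searched for an extreme far from the rest, by its gap to the nearest other value as a share of the range (Dixon's criterion). Chance would mark about 5% of independent sets of normally distributed values, and 4 were marked, all of them in triceps. Levels in CPM need not be so distributed and the sets share libraries, so the 5% is only a rough guide.

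The summed level of the set of 42 genes was 6621 CPM in the triceps of animal 40, where the other 9 libraries were at 425 to 3295 CPM. The gap was 0.537 of the range. The summed level of the set of 16 genes was 130.5 CPM in the triceps of animal 37, with the others at 43.3 to 84.0 CPM and a gap of 0.534 of the range. These are also the animals whose triceps lay nearest to gastrocnemius along the muscle difference, at -0.18 and -0.28. Genes of both sets whose mean reached 10 CPM enter that position too, weighted by their large differences. It is therefore no separate observation. Without animal 40 the comparison called 2309 genes, and without animal 37 it called 2501, against 2647 with every animal. The source of these values was not tested.

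ENSRNOG00000051548 was at 105.3 CPM in the triceps of animal 33, with the others at 67.8 to 82.6 CPM and a gap of 0.605 of the range. That library had the lowest total, 12108635 counts. ENSRNOG00000016149 was at 0.182 CPM in the triceps of animal 32, with the others at 0 to 0.0897 CPM and a gap of 0.507 of the range, but this value rests on 3 counts.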

How the results depend on the processing

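At 22 months the count of 2647 called genes moved beyond 1.5 times only at an adjusted p under 0.05, to 4497. Without the replicate block, that is without pairing the muscles of an animal, 2552 genes were called, of which 2275 were shared, with 467 at 20 months and 0 for the change between ages, so the pairing altered no call of a named gene. DESeq2 gave 3459, limma-voom 2734, RLE 2643, library totals 3421, no filter on low counts 2748, a robust estimate of the spread 2669 and thinned libraries 2529. A similar count did not mean the same genes. Only 1951 of the 2647 genes were also called with library totals, against 2616 with RLE and 2646 by DESeq2. Leaving out 1 animal at a time gave 1978 to 2894. The numbers beyond 2 on the log2 scale, an alternative added after seeing the data, were 238 higher and 20 lower without the filter, where more weak genes were tested, and 126 higher and 7 lower with library totals. Leaving out 1 animal gave 102 to 118 higher and 9 to 13 lower. At 20 months the 506 called genes became 1561 at an adjusted p under 0.05 and 1227 by DESeq2, and leaving out 1 animal gave 213 to 715, and the count fell by more than 1.5 times when replicate 3 (224), 4 (255), 5 (213), 7 (284), 8 (270) or 9 (244) was absent. The cause was not tested. The change between ages had 0 genes in each of these alternatives. Each named gene kept its direction and its call in 18 of 18 alternatives, with log2 differences of 9.35 to 10.3 for ENSRNOG00000026087, 9.17 to 10.1 for ENSRNOG00000016149, -3.31 to -3.01 for ENSRNOG00000051548 and -2.93 to -2.22 for ENSRNOG00000016043. The counts for gene lists were not run, for want of gene names. Depth limits the 2 genes that are near 0 in triceps, whose differences rest on 59 and 7 counts.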
